A study of Homo sapiens with 2 samples.

Results

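The antibodies to insulin-like growth factor (IGF) binding proteins were taken as every antibody of the array whose name contains IGFBP, which gave 6 of 507. They are IGFBP-1, IGFBP-2, IGFBP-3, IGFBP-4, IGFBP-6 and IGFBP-7, the last printed as IGFBP-rp1 / IGFBP-7, and all 6 matched a human gene symbol. IGFBP-5 was not analysed here. By the labels, Su.86.86 cells (spelled Su.86.68 in the design text), a human pancreatic cancer line grown with 10% fetal bovine serum, received an siRNA against JAG1 (siJAG1), the gene of the Notch ligand Jagged 1, or the siRNA siNC. Their medium was taken after 48 h and 100 µL of it was put on a glass antibody array for 2 h. There was 1 array per group, so no test and no p-value between groups is given. No antibody analysed here is named for Jagged 1, so these values do not check the knockdown.

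The labels of both arrays are in doubt. A sheet of single spots accompanies them, in which every antibody has 2 spots under each of 4 headings. These are BX3mir-124 and BX3_NC, and Panc1_mir-124 and Panc1_NC, and the labels use no such name. For 507 of 507 antibodies the siJAG1-labelled signal equalled the mean of the spots headed BX3_NC, and for 507 of 507 the siNC-labelled signal equalled that headed Panc1_NC. Panc1 is the name of another pancreatic cancer line, and neither heading names JAG1. Both matched headings end in NC, as the label siNC does. With NC read as a control, every fold between the labelled arrays would compare 2 controls. The headings do not say what NC or BX3 stands for. The arrays are therefore called by their labels throughout. Single-spot and control values of the siJAG1-labelled array are those headed BX3_NC, and of the siNC-labelled array those headed Panc1_NC, matched by value alone. No heading was taken as the name of a sample.

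IGF binding proteins are secreted carriers of IGF-I and IGF-II. They hold the growth factors in plasma and tissue fluid, govern their access to the IGF-I receptor, and several also act on cells without IGF. IGFBP-7 belongs to a related group with low affinity for IGF and is deposited in the matrix of blood vessels and stroma. In pancreatic cancer the IGF axis is known as a growth and survival pathway that tumour and stromal cells both feed.

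Levels are the deposited relative expression, in which the positive control spots stand at 1. The values show how it was made: the lowest spot of the array was taken as 0, at a signal of 33644 on the siJAG1-labelled and 33619 on the siNC-labelled array, and the mean of 12 positive control spots as 1, at 58664 and 57374. Other spots named Positive do not enter that mean and read only 33993 to 34320 and 33907 to 34505 on the same arrays. The "Neg" average of the sheets, 34178 and 34188, equalled the mean of 32 spots named Blank. The 16 spots named neg or Neg were brighter and do not enter that average. On the relative scale they lay between 0.123 and 0.967, with a median of 0.444, on the siJAG1-labelled array, and between 0.0610 and 0.967, with a median of 0.383, on the siNC-labelled array. The highest Blank spot stood at 0.0339 and 0.0327 on the same arrays. What is printed at the neg spots is not given in the sources used here. A positive control was 1.72 and 1.68 times as bright as a blank spot. A level of 0.2 was used as the limit for a fold. It lies above all Blank spots but below the median of the neg spots, of which 12 of 16 on the siJAG1-labelled and 13 of 16 on the siNC-labelled array reached it, so it does not show that a protein was detected. At least 0.2 on at least 1 array was reached by 3 of the 6 IGFBP antibodies, against 39 of all 507 (7.69%). A call required that level on either array and a difference of 1.5-fold or more, after any level below 0.2 was set to 0.2. By this rule 2 of the 6, IGFBP-7 and IGFBP-2, were called lower on the siJAG1-labelled array, where 15 of 507 antibodies (2.96%) were called lower. None of the 6 was called higher, where 7 of 507 (1.38%) were. The balance over all antibodies depended on the scaling: with each array divided by its median, 18 were called higher and 10 lower, and by its total, 13 and 11. Under these scalings and after quantile normalization 1 binding protein, IGFBP-7, was called lower.

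**Figure D1:**
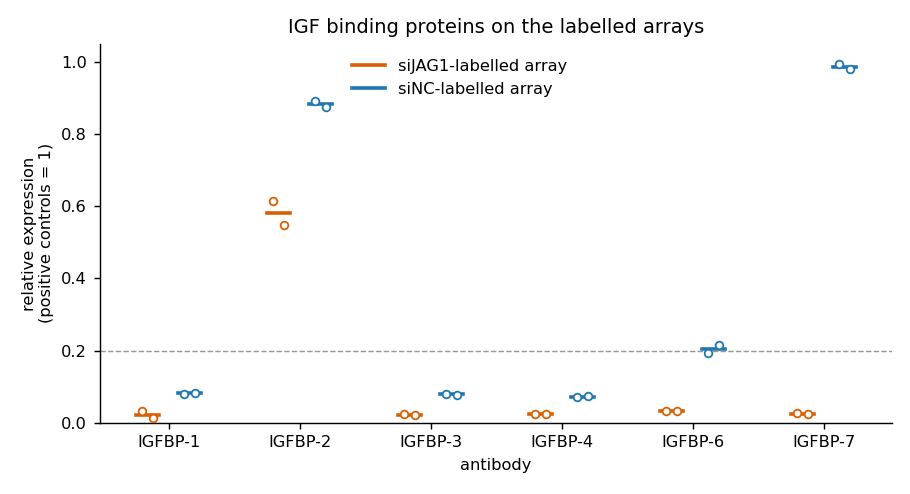
Relative expression (y axis, positive controls at 1) of the 6 IGFBP antibodies (x axis) on the siJAG1-labelled and siNC-labelled arrays. Open circles are the 2 spots of an antibody, bars their mean, and the dashed line marks 0.2. IGFBP-7 stands at 0.0255 against 0.987 and IGFBP-2 at 0.581 against 0.883, and no pair of spots of either overlaps between the arrays.

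IGFBP-7, also known as mac25 or angiomodulin, had the largest difference of the family. Its 2 spots read 0.0275 and 0.0235 on the siJAG1-labelled array, against 0.995 and 0.980 on the siNC-labelled array. The siJAG1-labelled spots lay among the dim antibodies and the siNC-labelled ones beside the positive controls. In signal, the means were 34282 against 57073, or 1.00 and 1.67 times the blank mean of the same array. IGFBP-7 was thus the brightest of all 507 antibodies on the siNC-labelled array and ranked 321st on the siJAG1-labelled one. Its siNC-labelled level was above the highest neg spot. Because its siJAG1-labelled level is within the range of the Blank spots, the fold is a bound: at least 4.94-fold lower, with a range of 4.90 to 4.97 over the 4 combinations of single spots. The bound holds for the authors' zero. As a plain ratio of signals the log2 value was -0.74, which still passed the 1.5-fold limit.

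IGFBP-2, a carrier with an integrin-binding motif that is known as a serum marker in several cancers, was bright on both arrays. Its spots read 0.614 and 0.549 on the siJAG1-labelled array, against 0.891 and 0.875 on the siNC-labelled array. The spot pairs did not overlap, and the pair was 0.0649 apart on the siJAG1-labelled array and 0.0160 apart on the siNC-labelled one. It ranked 13th on the siJAG1-labelled and 5th on the siNC-labelled array. The mean levels of 0.581 and 0.883 differed 1.52-fold, just past the limit. Over the 4 combinations of single spots the fold was 1.43 to 1.62, so the call does not hold within the spread of the spots: the first spots alone gave 1.45-fold and no call, the second alone 1.59-fold. Division of each array by the median of its antibodies turned the log2 ratio of -0.60 to 0.16. The signals were 1.41 and 1.60 times the blank mean. Both levels were above the median of the neg spots, 0.444 and 0.383, but within their range.

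IGFBP-6, which binds IGF-II in preference to IGF-I, lay at the limit. Its spots read 0.0315 and 0.0339 on the siJAG1-labelled array, against 0.194 and 0.214 on the siNC-labelled array. The siNC-labelled pair lay on both sides of 0.2, and its mean was below the median of the neg spots. Against the floor the mean of 0.204 gave at least 1.02-fold, and no call.

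IGFBP-1, an insulin-regulated binding protein made mainly by liver and decidua, read 0.0230 on the siJAG1-labelled and 0.0815 on the siNC-labelled array. IGFBP-3, the main IGF carrier of plasma, read 0.0226 and 0.0787 on the same arrays. IGFBP-4, an inhibitory carrier cut by the protease PAPP-A, read 0.0244 and 0.0721. All 3 were below 0.2 on both arrays, so no fold is given. Their levels were close to those around them on the slide: the 12 antibodies printed directly above and below the binding proteins had a median of 0.0251 on the siJAG1-labelled and 0.0722 on the siNC-labelled array. The medians over all antibodies were 0.0299 and 0.0509. The siNC-labelled levels were above the highest Blank spot, 0.0327, and below the median of the neg spots. No array of medium without cells was analysed here.

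**Figure D2:**
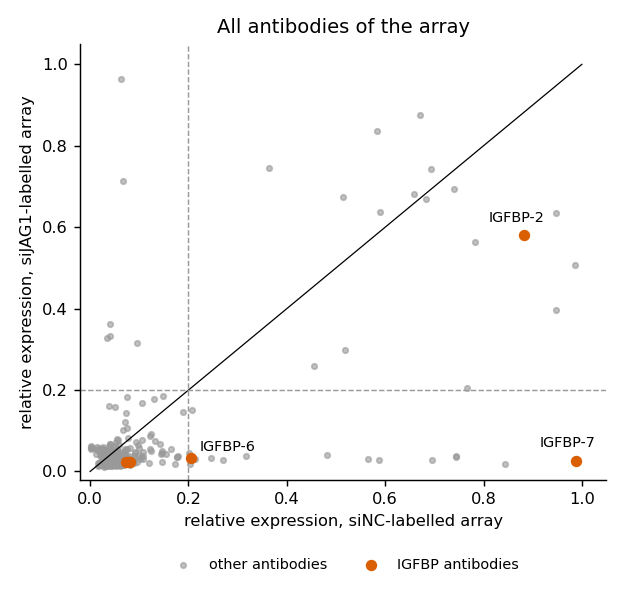
Relative expression of all 507 antibodies on the siNC-labelled array (x axis) and the siJAG1-labelled array (y axis), with the 6 IGFBP antibodies in orange. Dashed lines mark 0.2 and the solid line equal levels. IGFBP-7 lies at the far right near 0 on the y axis, IGFBP-2 is bright on both arrays, and IGFBP-1, IGFBP-3 and IGFBP-4 lie in the dim cluster.

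The rest of the IGF system was dim, as were most antibodies of the array. Of 9 other antibodies to ligands, receptors and the related CCN matrix proteins, 0 were called in either direction. The IGF-II receptor was the 1 that reached 0.2. Over all 507, 39 (7.69%) reached 0.2 on at least 1 array, 15 (2.96%) were called lower and 7 (1.38%) higher. Such counts among 9 antibodies do not set the list apart from the array. The ligand IGF-I read 0.0195 on the siJAG1-labelled and 0.172 on the siNC-labelled array, and IGF-II 0.0221 and 0.0630. Insulin read 0.0283 and 0.0362. The signalling receptor, printed as IGF-I SR, read 0.0184 and 0.0673, and the insulin receptor 0.0331 and 0.0486. The IGF-II receptor, which clears IGF-II from the cell surface, read 0.0323 and 0.245. CTGF, NOV and WISP-1 of the CCN family read from 0.0207 to 0.0614 on the siJAG1-labelled array and from 0.0286 to 0.0407 on the siNC-labelled one. Over the 9 antibodies the median log2 ratio of the signals was -0.018, close to -0.017 over all 507. With the binding proteins included, the 15 antibodies of the system had a median of -0.05. The binding proteins alone had a median of -0.11, which lies between IGFBP-6 at -0.16 and IGFBP-1 at -0.055. IGFBP-1, IGFBP-3 and IGFBP-4 were below 0.2 on both arrays, so this median does not show a lower level across the family. Antibodies named for the proteases that cut binding proteins, PAPP-A, ADAM and HTRA, numbered 0 here.

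The binding proteins were printed side by side in 1 row pair, so bright and dim members are neighbours. IGFBP-6 lies directly left of IGFBP-7 and IGF-I directly right of it. Under Panc1_NC, with IGFBP-7 at 0.987, these neighbours read 0.204 and 0.172. Under Panc1_mir-124, with IGFBP-7 at 0.884, they read 0.0490 and 0.0388. Next to a bright IGFBP-7 they were thus higher under 1 heading and near that heading's median of 0.0371 under the other. Under Panc1_NC the 21 dim antibodies directly left or right of one at 0.7 or more had a median of 0.0787 and included 3 at or above 0.2, against a median of 0.0483 and 4 such antibodies among the 460 elsewhere. Those 3 were IGFBP-6, GREMLIN and the IGF-II receptor. Under Panc1_mir-124 the 28 dim neighbours had a median of 0.0472 and 0 reached 0.2, against 0.0360 elsewhere. The part of neighbouring spots in the siNC-labelled level of IGFBP-6, IGF-I and the IGF-II receptor was not tested. The neighbours of IGFBP-2 in that row, IGFBP-1 and IGFBP-3, stayed at 0.0815 or below on both labelled arrays.

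**Figure D3:**
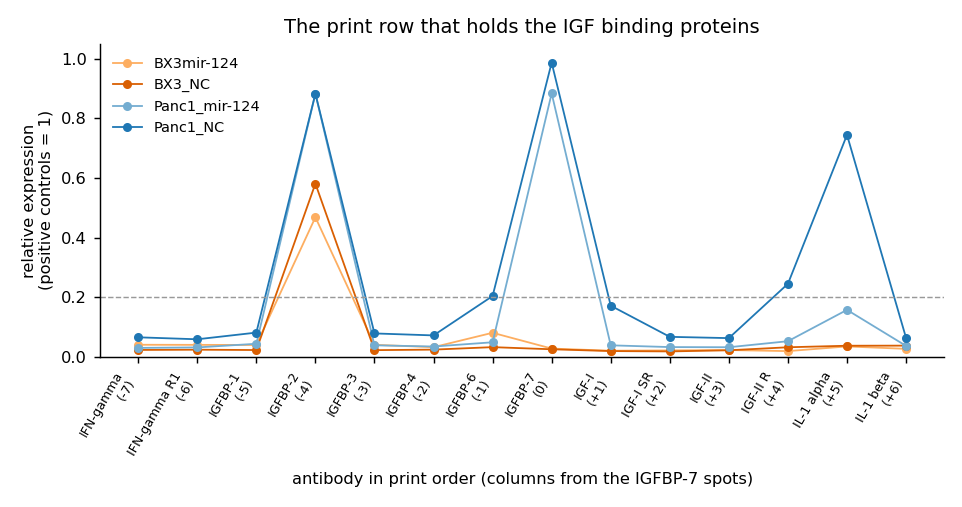
Relative expression (y axis) of the antibodies in the print row of the binding proteins, in print order with the distance in print columns from IGFBP-7 (x axis), for the 4 headings of the single-spot sheet. Lines join neighbouring antibodies and the dashed line marks 0.2. Under Panc1_NC the antibodies beside IGFBP-7 read 0.204 and 0.172, under Panc1_mir-124 they read 0.0490 and 0.0388.

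The single-spot sheet gives the family under 2 further headings, which belong to no sample of the labels. The same arithmetic, lowest spot as 0 and positive control mean as 1, was applied to all 4 columns. IGFBP-7 read 0.0270 and 0.0288 under BX3mir-124 and 0.0275 and 0.0235 under BX3_NC. It read 0.908 and 0.861 under Panc1_mir-124 and 0.995 and 0.980 under Panc1_NC. All 4 spots under the Panc1 headings were far above all 4 spots under the BX3 headings, so the difference between the labelled arrays is also one between columns headed BX3 and Panc1. Under Panc1_mir-124 both IGFBP-7 spots were within the range of the neg spots of that heading, 0.0886 to 0.983. Label and heading cannot be told apart in the 2 labelled arrays. Antibodies at or above 0.2 under both Panc1 headings and below it under both BX3 headings numbered 4 of 507: IGFBP-7, EDA-A2, latent TGF-beta binding protein 1 and MCP-1. The reverse pattern was shown by 1, Lipocalin-2.

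IGFBP-2 was among the 11 antibodies at or above 0.2 under all 4 headings. Its spots read 0.485 and 0.452 under BX3mir-124 and 0.614 and 0.549 under BX3_NC. They read 0.902 and 0.864 under Panc1_mir-124 and 0.891 and 0.875 under Panc1_NC. The spots overlapped between the Panc1 headings, at a mean of 0.883 under both, and did not overlap between the BX3 headings. IGFBP-6 read 0.0935 and 0.0683 under BX3mir-124, where IGFBP-7 was dim, and ranked 21st of 507 there, with the heading's median at 0.0408. The Blank spots of that heading read 0.0452 to 0.0785, above this median. The second IGFBP-6 spot lay among them, and the mean of 0.0809 was just above the highest. Under Panc1_mir-124 IGFBP-6 read 0.0496 and 0.0484. The means of IGFBP-1, IGFBP-3 and IGFBP-4 stayed between 0.0226 and 0.0815 under all 4 headings, and their single spots between 0.0141 and 0.0827.

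**Figure D4:**
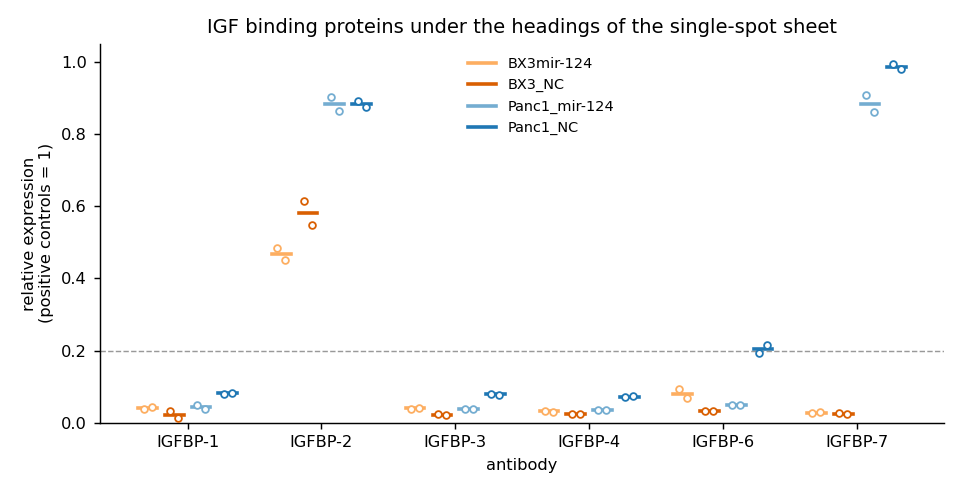
Relative expression (y axis) of the 6 IGFBP antibodies (x axis) under the 4 headings of the single-spot sheet, which match no sample title. Open circles are the 2 spots, bars their mean, and the dashed line marks 0.2. IGFBP-7 is at 0.884 and 0.987 under the Panc1 headings and at 0.0279 and 0.0255 under the BX3 headings, while IGFBP-2 is above 0.4 under all 4.

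The spread of the spot pairs covers the printing and reading of 1 array only. The median distance between the 2 spots of an antibody was 0.00472 under BX3_NC and 0.00686 under Panc1_NC, and 0.0381 and 0.0471 among antibodies at or above 0.2. The distance for IGFBP-2 under BX3_NC, 0.0649, was above that median, and the distance for IGFBP-7 under Panc1_NC, 0.0152, was below it. Among the same bright antibodies, single pairs were up to 0.530 apart under BX3_NC and 0.538 under Panc1_NC. The spread between cultures was not measured.

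For each member at or above 0.2 on at least 1 array, the most similar antibodies were sought by the distance between levels on the 2 labelled arrays. For IGFBP-7 they were GDF-15, a stress cytokine, at 0.0177 and 0.844, interleukin-1 alpha at 0.0374 and 0.745, and the monocyte attractant MCP-1 at 0.0353 and 0.744, the siJAG1-labelled level first in each case. The single-spot sheet separates these 3: under Panc1_mir-124 MCP-1 read 0.772 and GDF-15 0.714, but interleukin-1 alpha 0.158, and GDF-15 read 0.273 under BX3mir-124. For IGFBP-2 the nearest were the chemokine antibody GRO at 0.635 and 0.947, the Wnt antagonist sFRP-4 at 0.564 and 0.782, and the plasminogen activator uPA at 0.508 and 0.985. Of these, GRO was also above 0.2 under BX3mir-124, at 0.543, whereas sFRP-4 read 0.0373 and uPA 0.0737 there. For IGFBP-6 they were TRAIL at 0.0309 and 0.214, GREMLIN at 0.0447 and 0.201, and RANTES at 0.0194 and 0.204. Likeness over 2 arrays is a description only.

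Markers of the labelled cell type could not be checked, since 0 of 8 epithelial markers in the list have an antibody on the array. The 6 white blood cell markers present, of 9 in the list, read from 0.0236 to 0.0347 on the siJAG1-labelled and from 0.0679 to 0.0763 on the siNC-labelled array, with 0 at or above 0.2. Their summed levels were 0.188 and 0.432. The median over all 507 antibodies was also lower on the siJAG1-labelled array, at 0.0299 against 0.0509. The median difference, siJAG1-labelled minus siNC-labelled, was -0.0415 for the 6 markers and -0.0195 over all antibodies. Since every marker was below 0.2 on both arrays, these sums of dim levels do not show a difference in white blood cell proteins. Of 5 serum and platelet proteins in the list 3 were present, and thrombospondin-1 was the 1 above 0.2, at 0.694 and 0.740. The part of bovine serum in the levels of the binding proteins was not tested.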

How the data were processed

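Conditioned medium was read on antibody arrays with 507 antibodies after exclusion of control rows, 1 array per group, grouped by the sample titles. Per the file headers, the authors deposited, per antibody, the signal intensity and its relative expression. The deposited relative expression is a ratio, and its values recur in the series value table. The scanner and its software: not given in the sources used here. Single-spot intensity values were deposited as 2 identical copies with 4 columns that match no sample title. The columns BX3_NC and Panc1_NC were matched by value to the siJAG1-labelled and siNC-labelled arrays and gave their single-spot and control values. BX3mir-124 and Panc1_mir-124 were assigned to no sample, and all were read under their own headings. The authors' arithmetic was solved from the values (tolerance 1e-06) and applied to all 4 columns. Levels below 0.2 were set to 0.2 before a ratio, and a call needed 1.5-fold. Alternatives were other backgrounds, scalings, a floor of 0.1, the value table and single spots. The rule for named antibodies was all members, the IGF system list, slide neighbours, and the 3 nearest in level to each member at or above 0.2. EDA-A2, latent TGF-beta binding protein 1 and Lipocalin-2 were named after their values were seen. Members and lists were chosen with earlier results of these data known. Python 3.11.15, numpy 2.4.6, pandas 2.3.3 and matplotlib 3.10.9 were used. With no second culture or array per group, the number of arrays limits the precision.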

Additional observations from a re-analysis of the deposited data

Results flagged for a closer look

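IGFBP-2 and IGFBP-7 read above 0.2 in columns that the comparison of the labelled arrays does not use. Under Panc1_mir-124, IGFBP-7 stood at 0.884 and IGFBP-2 at 0.883 relative expression. Under BX3mir-124, IGFBP-2 stood at 0.469. The highest neg spot read 0.983 under Panc1_mir-124 and 0.777 under BX3mir-124, above these levels, so they do not show that a protein was detected. These headings match no sample title, and the levels are given as values only.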

How the results depend on the processing

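Each log2 ratio is the siJAG1-labelled over the siNC-labelled array. IGFBP-7 was called lower under every alternative tried (backgrounds, scalings, floor, value table and single spots). Some of these could not change its call. The value table repeats the same levels. With each array divided by its median or total, the siJAG1-labelled level was still set to 0.2 and the bound stayed at -2.30. Its log2 ratio, a bound of -2.30, was -0.74 without background subtraction, -2.29 after quantile normalization and -3.30 with a floor of 0.1. IGFBP-2, at -0.60, was -0.18 without background subtraction, 0.16 with each array divided by its median, -0.025 by its total and -0.35 after quantile normalization, and lost its call under these 4. It also lost it with the first spots alone, at -0.54. IGFBP-6, a bound of -0.03, was -0.16 without background subtraction and -1.03, a call, with a floor of 0.1; no ratio is given with the negative mean subtracted, after quantile normalization or with the first spots, where both levels were below 0.2. Of the binding proteins, 2 were called lower as reported and 1 without background subtraction, under the 3 scalings and with the first spots; the same counts held for the IGF system, where a floor of 0.1 gave 5. None was called higher under any of these settings. Over all antibodies, 7 were called higher and 15 lower as reported, 18 and 10 with median scaling, 13 and 11 with total scaling, 11 and 11 after quantile normalization, 11 and 27 with a floor of 0.1 and 1 and 2 without background subtraction. The cause of these moves was not tested. No paired analysis was possible because each group has 1 array.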
